A study of Mus musculus with 24 samples.

Results

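The genes described here are 37 nuclear receptor genes of the mouse, taken from a fixed list that leaves out the Rev-erb and ROR receptors, Pparg, Hnf4a, Nr4a2 and Nr5a2, out of 22350 protein-coding genes of the mm9 annotation (GENCODE vM1). For each gene the binding sites of Rev-erbα (gene Nr1d1) were counted whose centre lay within 10 kb of any annotated transcription start, and all other 22313 protein-coding genes served as the background. Rev-erbα was immunoprecipitated with 1 antibody from tissue of wild-type C57BL/6 mice (genotype label C57BL/6J Wild Type) collected at zeitgeber time 10, that is 10 h after lights on. Epididymal fat (eWAT, 2 libraries) and a midbrain region, the ventral tegmental area (called brain below, 1 library), were assayed by ChIP-seq, and liver by ChIP-exo (2 libraries). ChIP-exo digests the bound fragments with exonucleases until the crosslinked protein stops them, which leaves a border on either strand of a site. The animals' age, sex and pooling were not given in the sources used here. The other 13 groups (19 samples) of the series were not analysed here.

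Each group was represented by 1 deposited list, so no spread between replicates could be computed, and counts of genes are given with the share of all other genes and with no test. There were 9016 peaks listed for eWAT and 10687 for brain, all 150 bp wide and with a score by the authors whose scale is not defined. For liver 245360 borders were listed. Sequencing depth was unknown. A liver border pair is a plus-strand border followed 5 to 60 bp downstream by the next minus-strand border, and 26563 such pairs were found, some of which share their minus border. Rank 1 is the highest score of a list, or the highest summed signal of the paired borders, and tied sites share the better rank. Scores were compared within a list only. The lists hold binding sites and no expression values, so the tissue labels could not be set against marker levels, and a site may come from any cell type of the tissue.

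Nuclear receptors are transcription factors with a zinc-finger DNA-binding domain and, in most members, a ligand-binding domain that exchanges corepressors for coactivators when a hormone, lipid or other small molecule is bound. Many bind DNA as heterodimers with a retinoid X receptor (RXR) at repeats of the motif AGGTCA, while Rev-erbα, which lacks the activating helix of its relatives, binds the same motif alone after an A/T-rich flank or as a pair of receptors at a direct repeat spaced by a pair of bases (RevDR2), and recruits the NCoR/HDAC3 corepressor. Rev-erbα is known as a repressor of clock genes, and it is linked to lipid metabolism of liver and fat.

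Of the 37 receptor genes, 27 had a listed Rev-erbα site in at least 1 of the 3 lists and 10 had none (27.0%, against 49.1% of the other genes). An eWAT peak lay within 10 kb of 11 genes (29.7%, 95% Wilson interval 17.5 to 45.8), against 14.2% of the other genes. A brain peak lay within 10 kb of 19 genes (51.4%, 35.9 to 66.6), against 27.9%. A liver border pair lay within 10 kb of 23 genes (62.2%, 46.1 to 75.9), against 35% of the other genes. Intervals cover counting error only. Thra, Ppard, Nr1h3, Rxra, Nr2f2, Nr3c1, Nr3c2 and Nr4a3 had a site in all 3 lists, 8 of 37 genes (21.6%, 11.4 to 37.2) against 4.23%. A further 8 genes (Thrb, Rara, Nr1i3, Rxrb, Nr2f6, Esrra, Esrrg and Nr0b2) had brain and liver sites without an eWAT peak (21.6%, against 11.6% of other genes). No receptor gene had eWAT and brain peaks without a liver pair, a pattern that was rare among other genes too (2.31%). The receptor genes had more annotated starts than other genes (median 5, range 1 to 11, against a median of 2) and longer spans (median 47125 bp against 15414 bp). When only the most upstream start of each gene was used, 6 genes had an eWAT peak (16.2%, 7.65 to 31.1, against 11.1% of other genes). A brain peak was then found for 16 (43.2%, against 25.1%), a liver pair for 19 (51.4%, against 31.5%) and all 3 for 3 (8.11%, against 2.75%). The eWAT share of other genes thus lay inside the interval of the receptor genes. How much of the differences comes from the number of starts was not tested beyond this.

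**Figure D1:**
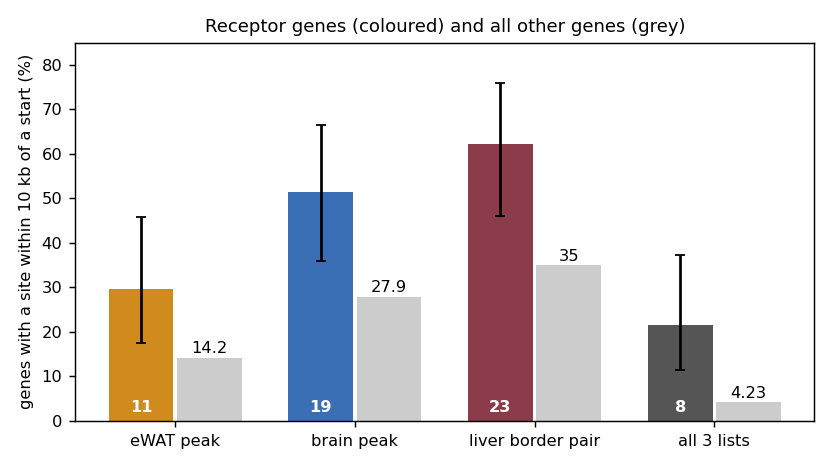
Percentage of genes with a listed Rev-erbα site within 10 kb of a transcription start, for the 37 receptor genes (coloured bars, number of genes inside, error bars 95% Wilson intervals) and the other 22313 protein-coding genes (grey bars, percentage above). The coloured bars run from 21.6% to 62.2% and the grey bars from 4.23% to 35%.

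A gene with sites in several lists did not usually have them at the same place. Only Thra had an eWAT peak that overlapped a brain peak (1 of 37 genes, against 1.73% of other genes), although 8 genes had peaks in both tissues. Its 3 shared sites were among 16 eWAT peaks and 31 brain peaks near the receptor genes. Over the whole list, 706 of the 9016 eWAT peaks (7.83%) overlapped a brain peak, so little overlap was general to these lists. Of the 16 eWAT peaks, 9 had at least 1 single liver border no more than 100 bp from their centre, against 2703 of all 9016 eWAT peaks. The same held for 19 of the 31 brain peaks (61.3%, against 36.4% of all brain peaks). A border pair lay that close to 2 eWAT peaks (12.5%, against 11.6% of all peaks) and to 5 brain peaks (16.1%, against 10.9%).

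**Figure D2:**
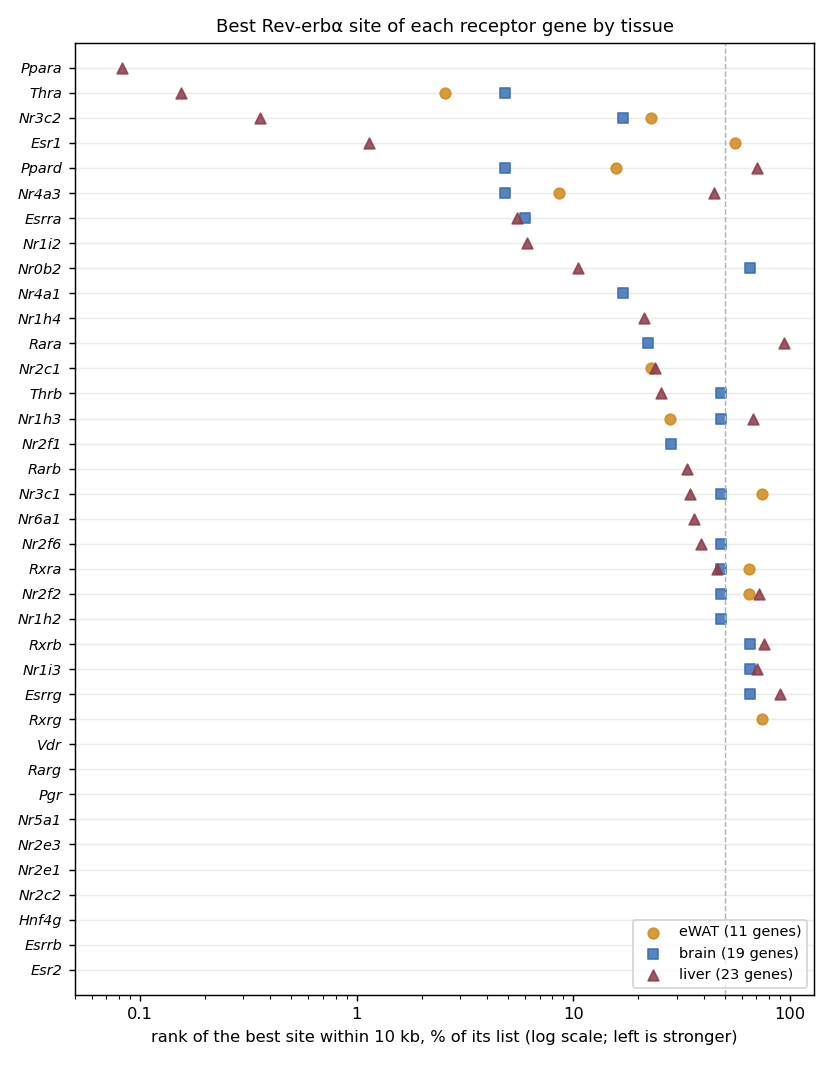
Rank of the best site within 10 kb of each receptor gene as a percentage of its list, on a log scale with stronger sites to the left, for eWAT peaks (circles, 11 genes), brain peaks (squares, 19 genes) and liver border pairs (triangles, 23 genes). The dashed line marks the middle of a list. Ppara, Thra and Nr3c2 lie at 0.0828%, 0.154% and 0.358% of the liver list, and the 10 genes at the bottom have no listed site.

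Thra, which encodes thyroid hormone receptor α, had the best-ranked eWAT site of the 37 genes and shared the best brain rank with Nr4a3 and Ppard. It lies next to Nr1d1 and overlaps its end on the opposite strand. The gene had 5 eWAT peaks, a number reached by 3 of the 3176 genes with an eWAT peak, and 5 brain peaks, reached by 19 of 6236 genes. The eWAT peaks scored 54.7 (rank 231), 53.7 (rank 244), 34.4 (rank 721), 26.3 (rank 1303) and 17.2 (rank 3142). The brain peaks scored 61.8 (rank 519), 54.5 (rank 771), 43.6 (rank 1451) and, at 2 peaks, 32.7 (rank 3030). All 5 eWAT peaks and 4 of the brain peaks lay in introns of Thra, and the fifth brain peak lay at its most upstream start. These peaks lay 15381 to 29779 bp from the nearest start of Nr1d1, whose own peaks hold ranks 1, 2 and 4 in eWAT and 1, 2 and 7 in brain. The 3 shared sites overlapped by 97, 102 and 126 bp, so that Thra still counted when at least 75 bp had to overlap (1.36% of other genes), when the start had to be within 1 kb (0.69%), and when both peaks had to exceed the median score of their list (1.19%).

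The 3 shared Thra sites are shown as the places where eWAT and brain coincide. Sequences are the mm9 plus strand, 5′ to 3′, and capitals mark every match to one of the motifs searched on both strands. These were a Rev-erbα response element, RevDR2, DR1, DR4, the single receptor motif AGGTCA (the first 4 are built from AGGTCA or GGGTCA, so a match to them can also hold it), the E-box CACGTG, the HNF6-type letters ATCGAT or ATTGAT, and the C/EBP-type letters TTGCNNAA.
Thra intron, 3327 bp downstream of a start, chr11:98608799-98608948: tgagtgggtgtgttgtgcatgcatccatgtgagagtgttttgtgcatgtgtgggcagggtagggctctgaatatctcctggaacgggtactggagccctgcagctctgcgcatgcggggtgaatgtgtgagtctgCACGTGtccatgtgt
Thra intron, 1411 bp downstream of a start, chr11:98616236-98616385: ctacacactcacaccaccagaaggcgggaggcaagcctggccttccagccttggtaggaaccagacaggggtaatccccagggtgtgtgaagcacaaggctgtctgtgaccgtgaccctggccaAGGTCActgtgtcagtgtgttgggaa
Thra intron, 543 bp downstream of a start, chr11:98603940-98604089: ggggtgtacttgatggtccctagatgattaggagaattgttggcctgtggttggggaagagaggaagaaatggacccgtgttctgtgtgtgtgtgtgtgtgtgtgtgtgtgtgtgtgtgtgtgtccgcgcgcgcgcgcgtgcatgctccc

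The first of these sites held an E-box and the second 1 receptor motif AGGTCA, while none held a full Rev-erbα response element. The third held none of the searched motifs and a GT repeat of at least 20 bases, which 2.11% of all eWAT peaks also held. The first site was occupied in all 3 tissues, with a liver border pair centred 36 bp from the eWAT centre and 17 bp from the brain centre (rank 2987 of 26563, spacing 42 bp). Beside the second site lay the liver pair of rank 41, centred 140 bp from the eWAT centre and 92 bp from the brain centre. This pair had a summed signal of 20.3, against a median of 1.41 over all pairs and of 36.1 for the strongest pair at the Nr1d1 start. The nearest liver pair to the third site was 4895 bp away.

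The remaining Thra peaks were found in 1 tissue each, although some lay close together. The next-ranked eWAT and brain peaks, both upstream of the last start, did not overlap. They are shown among the best-ranked peaks, with the eWAT peak downstream of that start.
Thra eWAT, 2974 bp upstream of the last start, chr11:98611851-98612000: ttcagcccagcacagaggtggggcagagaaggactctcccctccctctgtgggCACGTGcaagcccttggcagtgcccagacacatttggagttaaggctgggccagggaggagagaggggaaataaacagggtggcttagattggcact
Thra brain, 2518 bp upstream of the last start, chr11:98612307-98612456: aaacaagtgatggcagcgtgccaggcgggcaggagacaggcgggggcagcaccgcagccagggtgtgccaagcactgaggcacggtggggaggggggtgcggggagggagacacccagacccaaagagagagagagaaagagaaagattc
Thra eWAT, 844 bp downstream of the last start, chr11:98615669-98615818: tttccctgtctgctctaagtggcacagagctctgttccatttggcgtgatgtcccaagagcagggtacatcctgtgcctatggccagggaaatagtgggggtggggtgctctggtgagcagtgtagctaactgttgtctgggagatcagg

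Of these 3 sequences the first held an E-box, and the others held no searched motif.

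**Figure D3:**
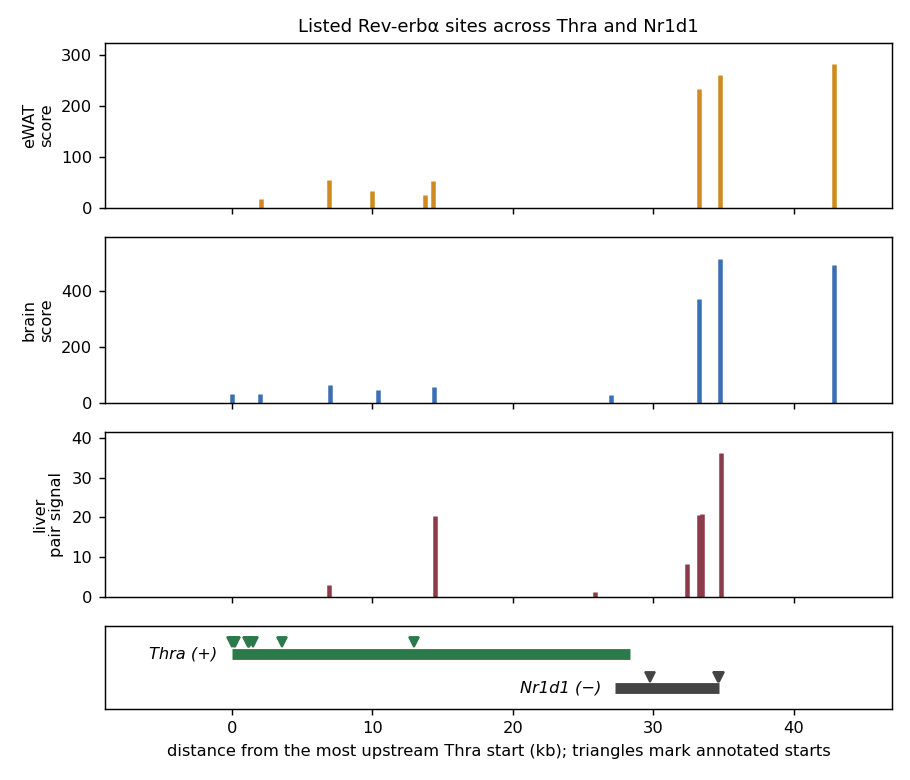
Listed Rev-erbα sites across Thra and the neighbouring Nr1d1, plotted by distance from the most upstream Thra start (kb), with the authors' peak score for eWAT and brain and the summed border signal of each pair for liver as vertical lines (linear axes, one scale per list). Green and grey bars are the gene spans and triangles the annotated starts. The Thra peaks reach 54.7 in eWAT and 61.8 in brain, below the 3 tall peaks at Nr1d1, while the liver pair of 20.3 inside Thra lies near the pairs of 20.6 and 20.9 inside Nr1d1 and below that of 36.1 at the Nr1d1 start.

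The other receptors of thyroid hormone, retinoic acid and vitamin D had weaker or no sites. Thrb, the β form of the thyroid hormone receptor, had a brain peak of score 25.5 at its start (chr14:18493527-18493676, intron, 128 bp downstream) and 2 liver pairs, the better of rank 6790. Rara, the retinoic acid receptor α, lies on chromosome 11 as well, and its brain peaks lay 143178 to 191439 bp from the nearest Nr1d1 start. It had 4 brain peaks, a number reached by 84 of 6236 genes without adjustment for its 8 annotated starts, with scores of 36.4, 29.1, 21.8 and 21.8. The best lay in an intron 1900 bp downstream of a start (chr11:98828011-98828160), and one of the weakest lay in an intron of Cdc6, whose start was nearer. No eWAT peak was listed within 79651 bp of a Rara start. Rarb had 1 liver pair (rank 8873), and Rarg and Vdr, the vitamin D receptor, had no site in any list, Vdr without even a single liver border within 10 kb.

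Among the receptors that sense lipids, bile acids and foreign compounds, Ppard and Ppara had the leading sites, in different tissues. Ppard encodes PPARδ, a fatty acid sensor that drives fat oxidation in many tissues. Its best eWAT peak (score 25.3, rank 1425) lay in an intron 7213 bp downstream of a start and was the only one of the 16 eWAT peaks with a full Rev-erbα response element, against 3.46% of all eWAT peaks, and the only one with a RevDR2, against 0.832%. None of the 31 brain peaks held either motif, against 2.16% and 0.384% of all brain peaks. The best brain peak of Ppard (score 61.8, rank 519, tied among 121 peaks) lay 81 bp upstream of a start. Both are printed among the best-ranked peaks near receptor genes. The brain peak is a promoter site without a receptor motif, and the eWAT peak is an intronic site with such motifs.
Ppard eWAT, intron, chr17:28416276-28416425: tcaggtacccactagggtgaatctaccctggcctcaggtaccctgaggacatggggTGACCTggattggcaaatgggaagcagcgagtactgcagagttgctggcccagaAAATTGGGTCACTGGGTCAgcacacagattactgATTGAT
Ppard brain, promoter, chr17:28369543-28369692: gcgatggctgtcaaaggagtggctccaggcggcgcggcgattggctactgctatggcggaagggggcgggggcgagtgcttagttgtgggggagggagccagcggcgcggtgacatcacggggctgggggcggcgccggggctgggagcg

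In the eWAT sequence the long run of capitals holds the response element followed by the second repeat of the RevDR2, both repeats being GGGTCA, and a further AGGTCA lies upstream on the opposite strand. The last capitals are an HNF6-type match. A second eWAT peak (score 14.2, rank 4438, chr17:28373731-28373880) lay 4054 bp downstream of a start. Of 2 further brain peaks, that of score 36.4 lay 4778 bp downstream of a start. The brain peak of score 25.5 lay 8378 bp upstream, in an intron of Def6, although the nearest start was that of Ppard. The 3 liver pairs of Ppard were weak, the best of rank 18846.

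Ppara encodes PPARα, the main activator of fatty acid oxidation and ketone production in liver. It had 14 liver border pairs within 10 kb of a start, a number reached by 5 of the 7828 genes with a pair, and 61 single borders. Its best pair had the highest rank of any receptor gene (rank 22 of 26563, summed signal 25.2, spacing 25 bp). No eWAT peak was listed within 20829 bp and no brain peak within 31598 bp. The pairs of ranks 22 and 43 share 1 minus border and lay 816 and 823 bp upstream of an internal start, in an intron. The remaining 12 pairs ranked from 815 to 22722. The pair of rank 22 is shown with 10 bp added on each side, because it is the strongest liver site of the 37 genes.
Ppara liver, intron, chr15:85601806-85601851: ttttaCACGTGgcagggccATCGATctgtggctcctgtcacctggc

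It held an E-box, as did 7.07% of all pairs, and an HNF6-type match, as did 16.2% of all pairs. HNF6 is a liver lineage factor that is known to hold Rev-erbα and its corepressor on DNA in liver. Whether it does so at this pair was not tested.

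**Figure D4:**
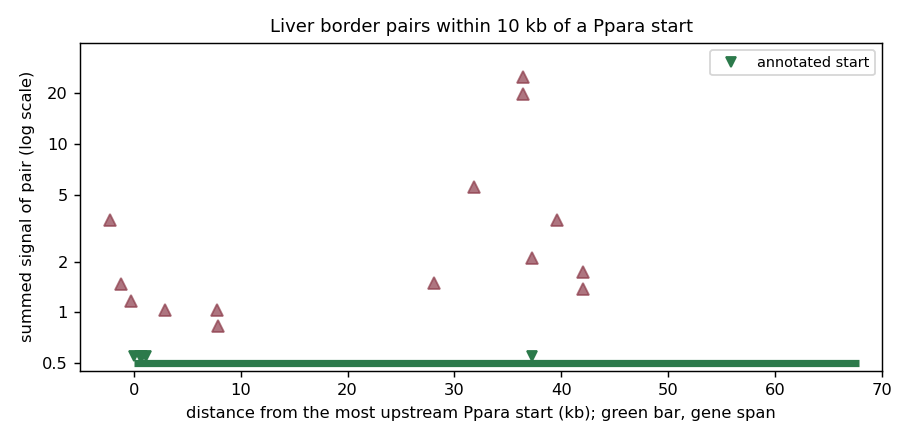
The 14 liver border pairs within 10 kb of a Ppara start, by distance from the most upstream start (kb) and by summed signal of the paired borders (log scale). The green bar is the gene span and green triangles are the annotated starts. The pairs of 25.2 and 19.9 stand above the other 12, which lie between 0.827 and 5.58, and both are beside the internal start.

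Of the other sensors, Nr1h3 (LXRα, an oxysterol receptor) had an eWAT peak of score 19.2 in an intron (chr2:91037038-91037187, rank 2526, with 1 AGGTCA). Its 2 brain peaks lay at its starts (scores 25.5 and 21.8, 38 bp downstream and 13 bp upstream), and its only liver pair (rank 17974) was nearer to a start of Madd. Nr1h2 (LXRβ) had 2 brain peaks with scores of 25.5 and 18.2, of which the first was nearer to Pold1 (86 bp from its start). Nr1h4 (FXR, the bile acid receptor) and Nr1i2 (PXR, a sensor of drugs and other foreign compounds) had liver pairs only. There were 4 pairs at Nr1h4 (best rank 5614) and 5 at Nr1i2 (best rank 1633, 6813 bp downstream of its start). Nr1i3 (CAR, a further such sensor) had 1 brain peak of score 21.8 and 1 liver pair (rank 18693), both nearer to Tomm40l. Hnf4g had no site in any list. Of the 8 genes of this subgroup, 6 had a liver pair, 4 a brain peak and 2 an eWAT peak, the same order as over all other genes (35%, 27.9% and 14.2%).

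The RXR genes, whose products are the shared partners of these receptors, had sites of low rank. Rxra had a brain peak of score 25.5 in an intron 343 bp downstream of a start (chr2:27595989-27596138) with a liver pair centred 42 bp away. That pair was weak (rank 22113), and the best of its 3 pairs ranked 12319. The eWAT peak of Rxra scored 12.2 (rank 5848) and lay 9964 bp from a start. Rxrb had a brain peak inside Col11a2, whose start was nearer (score 21.8), and 2 liver pairs, the better of rank 20277. Rxrg had only an eWAT peak, of score 11.1, 120 bp upstream of a start (chr1:169548245-169548394, intron, with 1 AGGTCA). The lowest eWAT score in the list is 10.1, so the Rxra and Rxrg peaks are close to the limit at which peaks were listed.

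Of the orphan receptors of the NR2 class, which have no established hormone, Nr2f2 (COUP-TFII, a repressor with roles in vessels and fat cells) had a site in all 3 lists. Its eWAT peak (score 12.2) fell in its coding sequence and held 2 E-box matches, its brain peak (score 25.5) lay 9684 bp downstream of a start, and its liver pair ranked 19167. Nr2f1 (COUP-TFI) had a brain peak of score 32.7 (rank 3030) 1885 bp upstream of a start. Nr2c1 (TR2) had an eWAT peak of score 21.3 (rank 2072), in a 3′ UTR exon of Fgd6, and a liver pair of rank 6307. The brain peak counted for Nr2f6 (score 25.5) lay 4 bp from a start of Use1 and 8844 bp from one of Nr2f6, and Nr2f6 had 2 liver pairs (best rank 10355). Nr2c2, Nr2e1 and Nr2e3 had no site in any list.

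Of the steroid receptors, Nr3c2 and Esr1 had strong liver sites. Nr3c2 encodes the mineralocorticoid receptor. Its eWAT peak (score 21.3, rank 2072, chr8:79656925-79657074, intron, 5088 bp downstream of an internal start) coincided with the liver pairs of ranks 95 and 113, which share a minus border and a summed signal of up to 13.6. The brain peak of Nr3c2 (score 40, rank 1821) lay elsewhere, 154 bp upstream of a start in another intron (chr8:79425958-79426107), and its nearest liver pair was 3173 bp away. The best liver pairs of Nr3c2 and Thra are printed, each with 10 bp added per side, as the strongest after that of Ppara.
Nr3c2 liver, intron, chr8:79657039-79657088: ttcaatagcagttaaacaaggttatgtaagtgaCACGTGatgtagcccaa
Thra liver, intron, chr11:98616427-98616476: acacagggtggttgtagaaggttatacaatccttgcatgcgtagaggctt

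Both pairs had a spacing of 29 bp, and only the Nr3c2 pair held a searched motif, an E-box. Of the 65 pairs near receptor genes, 9 had that spacing within 1 bp, against 2114 of all 26563 pairs. Esr1 (estrogen receptor α) had 4 liver pairs, the best of rank 303 (summed signal 8.72, chr10:5725565-5725589, intron, 8918 bp downstream of a start). An eWAT peak of score 13.2 (rank 5026) lay 766 bp from the nearest of its pairs, and no brain peak lay within 100 kb of an Esr1 start. Nr3c1, the glucocorticoid receptor, had 2 brain peaks of score 25.5 at starts (99 and 315 bp upstream), an eWAT peak of score 11.1 with 1 AGGTCA, and 2 overlapping liver pairs (best rank 9221). Esr2 (estrogen receptor β) and Pgr (progesterone receptor) had no site in any list and no single liver border within 10 kb.

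The estrogen-related receptors are orphan regulators of mitochondrial and oxidative genes. Esrra (ERRα) had a brain peak of score 58.2 (rank 640 of 10687) 345 bp upstream of its start, with a liver pair of rank 1468 centred 21 bp from it. It had 3 liver pairs in all and no eWAT peak within 44100 bp. The sequence of the brain peak is printed among those of the best-ranked peaks.
Esrra brain, promoter, chr19:6996573-6996722: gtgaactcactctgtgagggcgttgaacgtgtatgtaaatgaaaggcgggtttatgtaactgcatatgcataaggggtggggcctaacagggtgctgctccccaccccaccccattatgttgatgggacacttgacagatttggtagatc

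None of the searched motifs occurred in it. Esrrg (ERRγ) had a brain peak of score 21.8, 8476 bp downstream of a start, and a weak liver pair (rank 24004), and Esrrb (ERRβ) had no site in any list.

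The NR4A receptors are immediate-early genes, induced by growth factors and neuronal activity. Nr4a3 (NOR1) had its sites of eWAT, brain and liver upstream of its first start. The eWAT peak (score 33.4, rank 779) lay 132 bp upstream and the brain peak (score 61.8, rank 519) 1763 bp upstream, with a liver pair (rank 11919) centred 68 bp from the brain peak. The eWAT and brain peaks are shown among the best-ranked, and they lay at different places of the same promoter region.
Nr4a3 eWAT, promoter, chr4:48057818-48057967: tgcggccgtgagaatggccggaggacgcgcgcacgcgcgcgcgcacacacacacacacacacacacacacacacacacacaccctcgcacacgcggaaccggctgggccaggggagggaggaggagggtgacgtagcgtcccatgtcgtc
Nr4a3 brain, upstream, chr4:48056187-48056336: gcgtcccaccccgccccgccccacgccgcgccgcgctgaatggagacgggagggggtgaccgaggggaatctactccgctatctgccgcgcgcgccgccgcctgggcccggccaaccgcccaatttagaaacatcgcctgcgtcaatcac

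Neither held a searched motif, and the first held a CA repeat of at least 20 bases. The bases G and C made up 68% of the eWAT sequence and 71.3% of the brain sequence, against medians of 48.7% and 55.3% over all peaks of the lists. Nr4a1 (NUR77) had only a brain peak (score 40, rank 1821, chr15:101096937-101097086, 265 bp upstream of its start), and its nearest liver pair lay 12850 bp from the start. Nr0b2 (SHP, the repressor of bile acid synthesis) had 4 liver pairs in 2 overlapping couples, the best of rank 2801 and 6672 bp downstream of its start. The brain peak counted for it lay 13 bp from a start of Nudc. Nr6a1 had 3 liver pairs (best rank 9560), and Nr5a1 (SF-1, of steroid-producing tissue) had no site in any list.

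In position, 13 of the 16 eWAT peaks near receptor genes were intronic (81.3%, against 56.2% of the eWAT peaks within 10 kb of other genes), and 5 of these 13 lay in Thra alone. Of the 31 brain peaks, 16 were intronic (51.6%, against 35.3%) and 12 intergenic (38.7%, against 40.9%). Of the 65 liver pairs, 43 were intronic (66.2%, against 45.7%). The receptor genes also had the longer spans given above, whose part in these shares was not tested. A start lay within 1 kb of 5 of the 16 eWAT peaks (31.3%, against 21.8% of peak-gene pairs of other genes) and of 14 of the 31 brain peaks (45.2%, against 55.1%). In all 16 eWAT cases the receptor gene had the nearest start, against 82.3% of peak-gene pairs of other genes. For brain the share was 80.6%, against 75.3%, and at 6 of the 31 brain peaks another gene had the nearest start. These were the peaks named above at Pold1, Use1, Nudc, Tomm40l, Cdc6 and Col11a2. With sites given only to the gene of the nearest start, 11 receptor genes had an eWAT peak (11.7% of other genes), 15 a brain peak (22%) and 21 a liver pair (28.7%). Under that rule 7 had a site in all 3 lists (2.92%). AGGTCA occurred in 6 of the 16 eWAT peaks (37.5%, against 19.0% of all eWAT peaks), in 4 of the 31 brain peaks (12.9%, against 11.7%) and in 4 of the 65 liver pairs (6.15%, against 7.82%). No DR1 or DR4 match was found in any of these peaks or pairs, but both were rare over the whole lists. DR1 occurred in 0.133% of all eWAT peaks, 0.103% of brain peaks and 0.0565% of liver pairs. DR4 occurred in 0.0333%, 0% and 0.0188%. An HNF6-type match occurred in 4 of the 65 liver pairs (6.15%, against 16.2%), and an E-box in 8 (12.3%, against 7.07%), of which overlapping pairs at Ppara and Nr3c2 counted the same E-box more than once. The motif shares over all peaks or pairs include sites farther than 10 kb from a start, and no matched set was compared.

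Of the 16 eWAT peaks near receptor genes, 10 scored above the list median (62.5%, against 49.2% of all eWAT peaks), with a median score of 20.3 against 14.2. All 5 Thra peaks, with scores of 17.2 to 54.7, were among these 10, so 1 gene weighs heavily in both values. Of the 31 brain peaks, 14 did (45.2%, against 48.4% of all brain peaks), and their median score was that of the list, 25.5. The 65 liver pairs had a median summed signal of 1.48 against 1.41 over all pairs. The whole lists used for these comparisons also hold sites farther than 10 kb from a start. Above the median score of the list, 6 receptor genes had an eWAT peak (16.2%, against 7.58% of other genes) and 8 a brain peak (21.6%, against 17.2%). A liver pair whose borders both exceeded the median border signal was found for 14 (37.8%, against 21.9%). Thra and Nr3c2 alone met this in all 3 lists, against 1.63% of other genes. Within 1 kb of a start, 4 receptor genes had an eWAT peak (3.58% of other genes), 11 a brain peak (18.3%), 12 a liver pair (19.7%) and none all 3 (0.784%). Within 50 kb the numbers were 23 (38.7%), 24 (51.1%), 27 (60.5%) and 17 (23.1%). At that distance Nr2f2 and Nr4a1 joined Thra as genes with an eWAT peak overlapping a brain peak (3 genes, 5.84% of other genes). A liver pair with a spacing of 5 to 30 bp lay near 15 receptor genes (24.8%), and any single border near 34 (77.4%). Around the 10 kb limit, the outermost counted sites were the eWAT peaks of Rxra (9964 bp) and Esr1 (9693 bp) and the brain peak of Nr2f2 (9684 bp). The nearest sites not counted were the eWAT peak of Nr6a1 (12159 bp), the liver pair of Nr4a1 (12850 bp) and the eWAT peak of Nr0b2 (16955 bp). The 10 genes without a site were Rarg, Vdr, Hnf4g, Nr2c2, Nr2e1, Nr2e3, Esr2, Esrrb, Pgr and Nr5a1. Of these, 4 had an eWAT peak within 100 kb (17465 to 82728 bp), 6 a brain peak (21910 to 89242 bp) and 5 a liver pair (35309 to 70018 bp), and they had 0 to 13 single liver borders within 10 kb.

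The genes that surround the receptors in their pathway were counted in the same way. The shares to set beside these counts are those of the protein-coding genes outside the 37, of which 14.2% had an eWAT peak, 27.9% a brain peak, 35% a liver pair and 4.23% all 3. Of the 9 receptor genes left out of the list, 5 had an eWAT peak (55.6%), 5 a brain peak (55.6%) and 8 a liver pair (88.9%). Of 19 coregulators of nuclear receptors, 9 had an eWAT peak (47.4%), 11 a brain peak (57.9%) and 8 a liver pair (42.1%), and 2 had all 3 (10.5%). They had a median of 5 annotated starts. An eWAT peak of score 55.7 among them lay 1656 bp upstream of a start of Tbl1x, which encodes a subunit of the NCoR complex. Of 24 genes that make, bind or break down receptor ligands, 1 had an eWAT peak (4.17%), 6 a brain peak (25%) and 9 a liver pair (37.5%), the last 2 shares being near those of the other genes. The median of their annotated starts was 2. The eWAT peak lay 94 bp downstream of a start of Hsd11b1 (score 30.4, chr1:195068616-195068765), the enzyme that regenerates active glucocorticoid, and a liver pair was centred 8 bp from it. The best liver pair of this list lay 202 bp upstream of Cyp7a1, the rate-limiting enzyme of bile acid synthesis.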

How the data were processed

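The 3 deposited lists cover 5 of the 24 samples, 1 list per group. Peak scores were deposited by the authors, on a scale that is not given in the sources used here, with eWAT scores in steps of about 1.01 and brain scores in steps of about 3.64. Border signal and p-value are columns named per the file headers, and all listed p-values run from 0.00503 to 0.05. The submitters' processing notes name the build mm9, Bowtie 0.12.8 (ChIP-seq), Bowtie 1.1.1 (ChIP-exo) and HOMER, without roles. How the callers were set, and whether libraries were pooled, was not given in the sources used here.

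Computed here, with Python 3.11.15, numpy 2.4.6, pandas 2.3.3 and scipy 1.17.1, were distances from site centres to 70018 starts of 22350 protein-coding genes, border pairs, peak overlaps of at least 1 bp, motif matches in the mm9 sequence (0 sites beyond a chromosome end) and Wilson intervals. Several plus borders can share a minus border: the 26563 pairs hold 21997 distinct minus borders, and the 65 pairs near receptor genes hold 56. The code was tested on simulated data with planted sites. All 37 genes are accounted for. Those with a peak are named with their best one, and genes with liver pairs only by their number of pairs and strongest pair. Sequences were printed for the shared sites and the best-ranked peaks, and the 3 liver pair sequences were chosen after their values were seen. The members and lists were chosen with earlier results of these data known. Some genes of the surrounding lists are not reported here.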

Additional observations from a re-analysis of the deposited data

How the results depend on the processing

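Of 37 receptor genes, 11 had an eWAT peak (14.2% of other genes), 19 a brain peak (27.9%) and 23 a liver pair (35%). All 3 were found at 8 (4.23%), and an eWAT peak overlapping a brain peak at 1 (1.73%). The counts moved by more than 1.5 times as follows, and the shares of other genes in parentheses changed with the same settings. Within 1 kb of a start the counts were 4 for eWAT (3.58%), 11 for brain (18.3%), 12 for liver (19.7%) and 0 for all 3 (0.784%). The 95% Wilson interval of this 0 reached 9.41%. Within 50 kb the counts were 23 for eWAT (38.7%), 17 for all 3 (23.1%) and 3 for overlapping peaks (5.84%). Above the list medians they were 6 for eWAT (7.58%), 8 for brain (17.2%), 14 for liver (21.9%) and 2 for all 3 (1.63%). With the most upstream start only they were 6 for eWAT (11.1%) and 3 for all 3 (2.75%). With pair spacings of 5 to 30 bp, 15 genes had a liver pair (24.8%). The other alternatives stayed within 1.5 times. No paired analysis was possible because each group has 1 deposited list and no per-replicate values. Depth was unknown.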

Other observations

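The best liver pairs of Thra and Nr3c2, printed above, share the 8 letters AAGGTTAT, which start 7 bp from the plus border in both. This was noticed after the sequences were seen. The letters occurred, on either strand, in 51 of all 26563 pairs (0.192%), in 7 of 2114 pairs with a spacing of 28 to 30 bp (0.331%), in 44 of 24449 pairs with another spacing (0.18%) and in 3 of the 100 pairs of highest summed signal. Of the 65 pairs near receptor genes 3 held them, all at Thra or Nr3c2, and those at Nr3c2 overlap each other. The letters were taken from the best Thra and Nr3c2 pairs. Both pairs are themselves counted among all pairs, those spaced 28 to 30 bp and the 100 of highest summed signal. These shares were therefore partly fixed in advance, and no link of the letters to spacing or signal can be read from them.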
